A study of Mus musculus with 8 samples.

Results

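Endothelins are small secreted peptides that act on blood vessels, on the heart and on neural crest cells. They are made as inactive precursors, which furin-type proteases cut to a "big" endothelin and which endothelin-converting enzymes then cut to the active peptide. The peptide binds G protein-coupled receptors of the A or the B type. The A type is found on mural and mesenchymal cells among others, and the B type on endothelial cells and neural crest derivatives. In the vessel wall the A receptor drives contraction and the B receptor on endothelium drives release of nitric oxide and prostacyclin and clears the ligand.

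The genes described here were the endothelin ligands Edn1 and Edn3, the receptors Ednra and Ednrb and the converting enzymes Ece1 and Ece2, 6 of the 53465 genes in the deposited table, taken by symbol. They were chosen by their measured values in these same data, in which Edn1 was known to be higher and Ednrb lower in the mutant libraries, and the question was whether ligand and receptors differed in opposite directions. The contrast between the groups is therefore given for them as a description, without a test.

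RNA was taken from heart ventricles of mouse embryos at embryonic day 15.5 (E15.5), in 4 libraries labelled WT and 4 labelled Nrg-1flox;Cdh5-CreERT2. The mutant genotype carries a floxed Nrg-1 allele, where Nrg-1 (gene symbol Nrg1) encodes the growth factor neuregulin-1, and a Cre recombinase that needs tamoxifen to act and is driven by the promoter of the endothelial cadherin gene Cdh5, so that Nrg1 made by other cells is not its target. The labels do not give the strain, the tamoxifen dose and days, or whether the WT embryos received tamoxifen, and they do not say whether replicates came from separate litters, so p-values measure the spread between these libraries.

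The libraries held 16761763 to 24144272 expected counts. Nrg1 was not lower in the mutant libraries. It lay at 4.87 ± 0.638 CPM (counts per 1000000 of the TMM-scaled library; SD, n = 4) in WT, against 6.17 ± 0.604 CPM (SD, n = 4) in the others, with a log2 fold change of 0.34 (SE 0.12, edgeR quasi-likelihood test, adjusted p = 0.311), and the deposited values are for whole genes, so a loss of single exons would not be seen. The second group is therefore called labelled-mutant. Xist, the RNA of the inactive X chromosome, lay at 0.192 to 206 CPM in WT and 103 to 327 CPM in labelled-mutant libraries, and in 7 of the 8 both Xist and a Y-linked sum (Kdm5d, Eif2s3y, Uty and Ddx3y) passed 20 counts. The Y-linked sum lay at 69.3 to 171 CPM in WT and 42.9 to 120 CPM in labelled-mutant libraries. Mean Xist was higher among the labelled mutants, at 244 against 120 CPM. Mean Y-linked RNA was lower among them, at 72.4 against 119 CPM, and the groups overlapped in both. The balance of male and female RNA may therefore differ between the groups. The series text gives a single ventricle for each replicate, which conflicts with finding both kinds of RNA in 7 of the 8 libraries. Whether these libraries mix several embryos was not tested, so n = 4 counts libraries and not animals. Cardiomyocyte markers were abundant in every library, with 9 genes summing to 47050 to 52080 CPM in WT and 46070 to 52430 CPM in labelled-mutant libraries. Of 15388 genes tested, 81 had a false discovery rate (FDR) below 0.05, which is 0.526%. Of these, 48 (0.312%) were higher and 33 (0.214%) lower in the labelled mutants, and the median log2 fold change of all tested genes was -0.00123.

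The ligands are close relatives, so the bases that code for their mature peptides are shown first, since single reads of this region had to tell them apart. Both stretches lie in exon 2 of 5, on the forward strand of assembly GRCm38 (GENCODE M21 transcripts), at chr13:42303649-42303711 for Edn1 and chr2:174761749-174761811 for Edn3. Capitals mark the bases that differ between the genes.
Edn1: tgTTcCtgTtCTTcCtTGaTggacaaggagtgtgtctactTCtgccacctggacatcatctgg
Edn3: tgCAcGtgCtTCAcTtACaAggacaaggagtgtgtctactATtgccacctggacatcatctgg
The stretches shared 50 of 63 bases (79.4%), and the last 21 bases, which code for the carboxy-terminal tail of the peptide, were identical. A further run of 20 identical bases lay from base 21 to base 40. All expected counts of Edn1 and of Edn3 were whole numbers in all 8 libraries, so that the values show no division of their reads with another gene.

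Edn1, the ligand of endothelium and endocardium (ENSMUSG00000021367, chr13:42301476-42307990, forward strand, 1 transcript), measured 9.99, 12.1, 12.1 and 14.5 CPM in the WT libraries, given here and below in the order of their numbers. The labelled mutants measured 17.3, 19.8, 16.6 and 19.8 CPM. Every labelled-mutant library lay above every WT library. The mean was 12.2 ± 1.84 CPM (SD, n = 4) in WT against 18.4 ± 1.68 CPM (SD, n = 4) in labelled mutants, 1.51 times the WT level, and the fitted log2 fold change was 0.59 (SE 0.10). The values rested on 216 to 472 counts a library. Over 35 bases the Edn1 exons lie opposite those of the antisense gene Gm47118, which reached at most 0.0933 CPM.

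Edn3, the ligand best known for its part in neural crest and melanocyte development (ENSMUSG00000027524, chr2:174760619-174784042, forward strand), was near the limit of detection. It was at 0.37, 0.486, 0.435 and 0.659 CPM in WT and at 0.404, 0.378, 0.42 and 0.412 CPM in labelled-mutant libraries, from 7 to 15 counts each. All labelled-mutant values lay within the WT range, and Edn3 did not pass the filter on low counts, so no fitted difference is given for it. Edn2, the remaining ligand of the family, was also scarce, at 0.176 to 0.555 CPM in WT and 0.0506 to 0.53 CPM in labelled mutants, and was not tested.

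Ednrb, the B receptor (ENSMUSG00000022122, chr14:103814625-103844402, reverse strand), measured 106, 106, 98.1 and 93.8 CPM in the WT libraries. The labelled mutants measured 74, 73.3, 68.1 and 77.7 CPM. Here every labelled-mutant library lay below every WT library. The mean was 101 ± 6 CPM (SD, n = 4) in WT against 73.3 ± 3.93 CPM (SD, n = 4) in labelled mutants, 0.726 times the WT level, with a fitted log2 fold change of -0.46 (SE 0.05). These values rested on 1320 to 2395 counts a library. In bulk ventricle, fewer cells that express a gene and less RNA of it in each cell cannot be told apart.

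Ednra, the A receptor (ENSMUSG00000031616, chr8:77663031-77724464, reverse strand), did not follow Ednrb. It was at 65.7, 68.9, 72.3 and 66 CPM in WT and at 67.5, 65.1, 68.6 and 66.4 CPM in labelled-mutant libraries, with overlapping groups. The means were 68.2 ± 3.06 CPM (SD, n = 4) and 66.9 ± 1.47 CPM (SD, n = 4), and the log2 fold change was -0.03 (SE 0.04). Its exons share 91 bases with 4933431K23Rik on the other strand, which lay at 2.52 to 3.2 CPM in all libraries. Both receptors together measured 169 ± 6.47 CPM (SD, n = 4) in WT against 140 ± 3.3 CPM (SD, n = 4) in labelled mutants, with groups that did not overlap.

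Ece1, the main converting enzyme (ENSMUSG00000057530, chr4:137862237-137965229, forward strand), had the highest level per exonic length of the 6 genes. It was at 226, 228, 203 and 234 CPM in WT and at 216, 223, 219 and 232 CPM in labelled-mutant libraries. The groups overlapped, their means were 223 ± 13.5 CPM (SD, n = 4) and 223 ± 7 CPM (SD, n = 4), and the log2 fold change was -0.000649 (SE 0.04).

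Ece2, a converting enzyme that works at acidic pH inside the cell (ENSMUSG00000022842, chr16:20629828-20646485, forward strand), was scarce. It was at 0.786, 0.927, 1.04 and 1.27 CPM in WT and at 0.607, 0.755, 0.354 and 0.624 CPM in labelled-mutant libraries, from 7.59 to 29 counts. The groups did not overlap, and the log2 fold change was -0.75 (SE 0.28). However, 2937 of its 5110 exonic bases (57.5%) are shared on the same strand with Gm49333, a protein-coding model that runs through the Ece2 locus. Gm49333 had 0 counts in all WT libraries and in labelled-mutant libraries 1 and 2, but 13.53 and 11.28 expected counts in labelled-mutant libraries 3 and 4. With both summed, the locus measured 1.01 ± 0.206 CPM (SD, n = 4) in WT against 0.909 ± 0.297 CPM (SD, n = 4) in labelled mutants, the groups overlapped and the log2 fold change was -0.18. The value of Ece2 is therefore uncertain, because reads of the shared bases could be assigned to either gene.

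Of the 6 genes, 5 passed the filter on low counts. Edn1 and Ednrb were the 2 with FDR below 0.05, against 0.526% of all genes tested, and nothing is read from that count because the same contrast chose them. Edn1, Ednrb and Ece2 were the 3 whose groups did not overlap, against 6.05% of all genes tested.

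**Figure D1:**
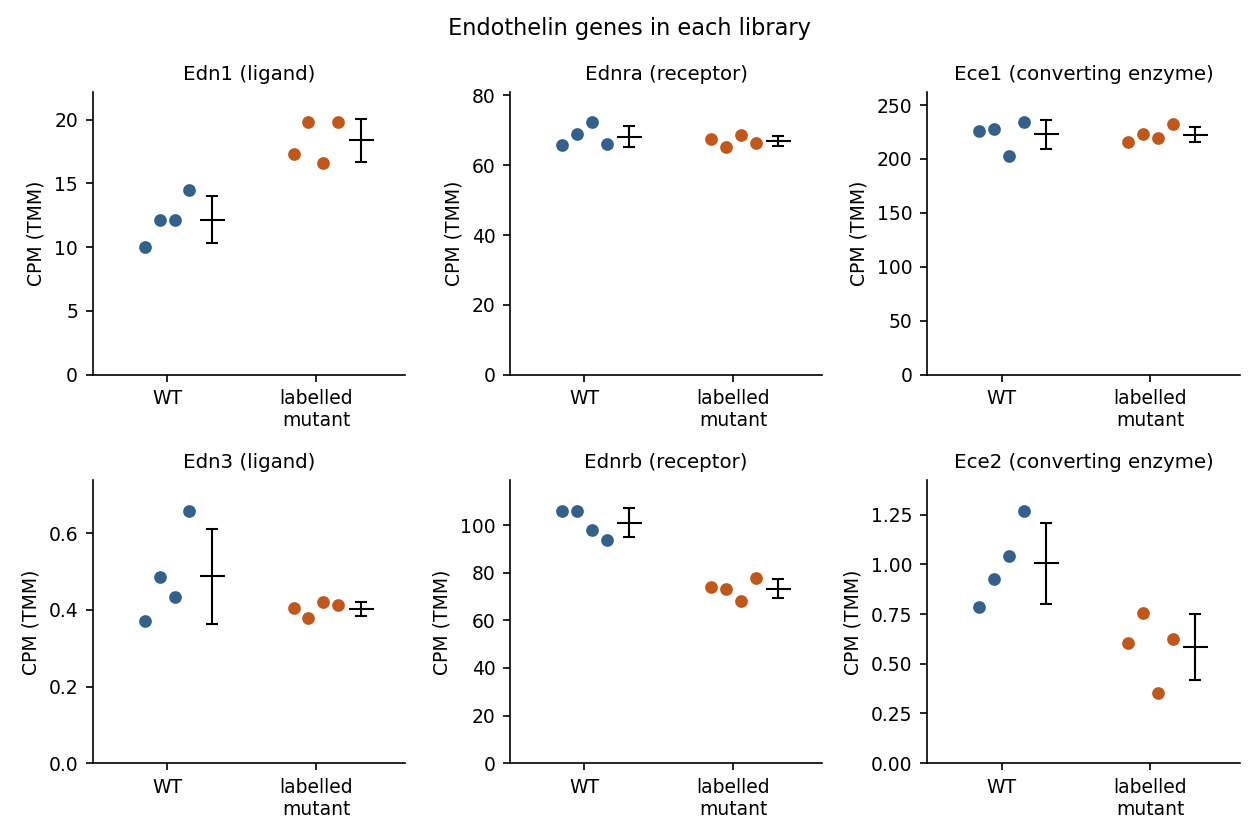
Level of each endothelin gene in CPM (linear axis from 0, a different scale in each panel) in the 4 WT (blue) and 4 labelled-mutant (orange) libraries, with the mean and SD beside each group. The groups are apart for Edn1, at 9.99 to 14.5 against 16.6 to 19.8 CPM, and for Ednrb, at 93.8 to 106 against 68.1 to 77.7 CPM, while those of Ednra and Ece1 overlap.

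The ligand and the B receptor thus differed in opposite directions in these libraries, and the A receptor and the main converting enzyme showed differences smaller than the spread between libraries. The ratio of Edn1 to Ednrb within each library combines both differences and does not depend on the scaling of the libraries. In log2 units it was -3.41, -3.12, -3.02 and -2.69 in WT and -2.1, -1.89, -2.04 and -1.97 in labelled-mutant libraries. Its mean was 1.06 higher in the labelled mutants, a 2.09-fold difference, and the groups did not overlap. The ratio of Edn1 to Ednra was higher by 0.63 (log2), from -2.5 ± 0.224 (SD, n = 4) in WT to -1.87 ± 0.163 (SD, n = 4). The ratio of Ednra to Ednrb was -0.564 ± 0.112 (log2; SD, n = 4) in WT and -0.13 ± 0.1 (SD, n = 4) in labelled mutants, a difference of 0.43. The linear ratio of Ednra to Ednrb was 0.855 to 1.01 in the labelled-mutant libraries and 0.62 to 0.737 in WT. These ratios carry no correction for length, so only their difference between the groups is read.

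**Figure D2:**
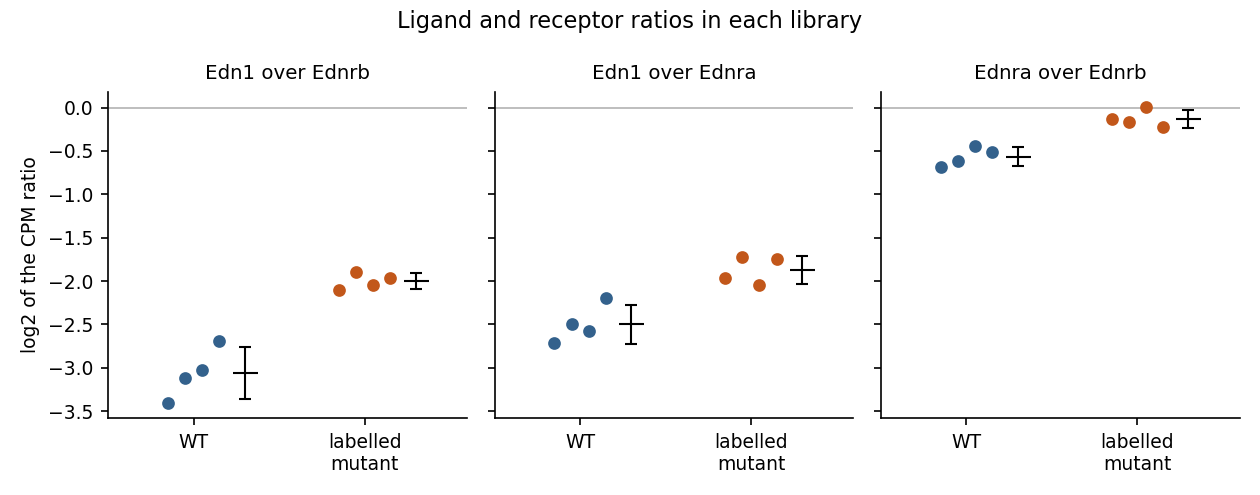
Log2 of the ratio of CPM values within each library, for 3 pairs of endothelin genes, in WT (blue) and labelled-mutant (orange) libraries, with mean and SD. No labelled-mutant library lies within the WT range for any of the 3 ratios, and the widest gap is that of Edn1 to Ednrb, at -3.41 to -2.69 against -2.1 to -1.89.

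Levels of different genes were compared as CPM per kilobase of exonic length. Over all 8 libraries Ece1 was highest, at 42.1 ± 1.88 CPM per kilobase (SD, n = 8). Ednrb followed at 20.4 ± 3.64, Ednra at 12.3 ± 0.427 and Edn1 at 7.14 ± 1.72 CPM per kilobase (SD, n = 8). Ece2, at 0.156 ± 0.0558, and Edn3, at 0.108 ± 0.0227 CPM per kilobase (SD, n = 8), were the lowest and their ranges overlapped, while the ranges of the other 4 pairs of neighbours did not. The order of the receptors depended on the length used. Per kilobase of the longest annotated transcript, Ednrb lay at 24.6 ± 1.46 and Ednra at 18.8 ± 0.845 CPM (SD, n = 4) in WT, but at 17.8 ± 0.956 and 18.5 ± 0.406 CPM (SD, n = 4) in labelled mutants, where their ranges overlapped. Edn1, the only ligand well above the limit of detection, lay at 5.7 ± 0.86 CPM per kilobase of exonic length (SD, n = 4) in WT and 8.58 ± 0.786 (SD, n = 4) in labelled mutants, below both receptors in either group.

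Variation between libraries of the same genotype played no part in choosing the genes, so the 15 pairs of members were tested on log2 CPM after the group means were removed, over 8 libraries, with an exact two-sided permutation test within groups of 576 arrangements. No pair passed after adjustment over the 15 pairs. The smallest exact permutation p that 576 arrangements can give is 0.00174, and a lone pair could pass only at that value. The outcome therefore does not show that the members vary independently. Edn1 and Ednrb, the pair that differed in opposite directions between the groups, had Pearson's r of -0.263 (exact permutation p = 0.599, 0.855 after adjustment). Spearman's rho was -0.238 (exact permutation p = 0.59, 0.861 after adjustment), and without the 2 libraries farthest from the median r was 0.657. Edn1 and Ece2 came closest, with r of 0.796 (exact permutation p = 0.00347, 0.0521 after adjustment) and rho of 0.857 (exact permutation p = 0.00694, 0.104 after adjustment), and r was 0.805 without the 2 farthest libraries. Only 1 of the 15 pairs had an unadjusted p for r below 0.05. The values of Ece2 rested on 7.59 to 29 counts, and the uncertain division of its reads with Gm49333 enters them. Edn1 was not tested against the sum of Ece2 and Gm49333.

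The genes whose log2 CPM followed each member most closely within groups were ranked among 12857 tested genes with a mean log2 CPM of at least 1, over the same 8 libraries, and the r values are a description. For Edn1 they were Efemp2 (r 0.971), an elastic fibre protein, Snrk (0.968), a kinase, and Eef2 (0.963), a translation factor. For Ednrb they were Invs (0.969), Pcdhb22 (0.966) and Smco4 (0.966), and for Ednra Wdr74 (0.988), Tusc1 (0.984) and Nhsl1 (0.977). For Ece1 they were Hars2 (0.971), Galnt2 (0.969) and Noc2l (0.966), for Ece2 Clip4 (0.967), Ahsg (0.958) and Col24a1 (0.958), and for Edn3 Ube2b (0.97), Arf1 (0.966) and Csnk1e (0.965). All 18 had an adjusted p above 0.05 between the groups in the edgeR quasi-likelihood test. The best of 12857 genes over 8 libraries can reach a high r by chance, and how high was not tested. Edn3, with 7 to 15 counts a library, also reached 0.97.

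The rest of the pathway was followed in 77 genes listed by role, of which 69 passed the filter. Of these, 3 fell in the labelled mutants (4.35%, against 0.526% of all genes tested) and 0 rose in the edgeR quasi-likelihood test, and the median log2 fold change over the 69 was -0.0237. The 3 were Aplnr, Nos3 and Ptgs1. The lists were chosen with earlier results of these data known, so the share called is a description. In the 8 lists of the endothelin pathway itself, without the other peptide systems, 2 of 57 tested genes fell. In all, 46 of the 69 lay below 0 and 23 above, and of 20 with an unadjusted p below 0.05, 16 were lower and 4 higher. Over all genes tested, 10.5% had such a p. The likelihood ratio test and DESeq2 each called 6 of the 69 and voom 2, with 0 of them higher, where over all genes tested they called 1.57%, 1.29% and 0.37%.

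In the nitric oxide and prostacyclin arm, which the endothelial B receptor drives, 2 of 6 genes fell. Nos3, the endothelial nitric oxide synthase, went from 67.4 ± 1.43 to 60.2 ± 0.525 CPM (SD, n = 4 each; log2 fold change -0.16, SE 0.03, edgeR adjusted p = 0.0383). Ptgs1, a cyclooxygenase, went from 17.6 ± 0.594 to 14.1 ± 0.822 CPM (SD, n = 4 each; log2 fold change -0.32, SE 0.06, edgeR adjusted p = 0.0454). For either gene every labelled-mutant library lay below every WT library, at 59.7 to 60.9 against 65.5 to 68.7 CPM for Nos3 and at 13 to 14.9 against 17 to 18.4 CPM for Ptgs1. The list's median log2 fold change was -0.0422 and its highest value was that of Prkg1, the kinase that acts downstream of nitric oxide, at 0.03 (SE 0.06). Nos3 passed under 9 and Ptgs1 under 8 of 20 alternatives, and both calls were lost with the replicate block, with the Y-linked or the pan-endothelial covariate and without any single library other than labelled-mutant library 4. The pan-endothelial markers lay below 0 in 10 of 12 cases too, with a median log2 fold change of -0.117, and their part in these values was not tested. Nos3 shares 25.2% of its exonic bases with the antisense gene Gm15587, and whether counting used the strand is not given in the sources used here.

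Among the other vasoactive peptide systems, 1 of 12 tested genes fell in edgeR's quasi-likelihood test. At an unadjusted p below 0.05 there were 5 lower and 1 higher, against 10.5% of all genes tested. The likelihood ratio test and DESeq2 each called 3, all lower, and voom 1, against 1.57%, 1.29% and 0.37% of all genes. The summed level of the list was 258.6 to 270.9 CPM in WT and 233.3 to 252.6 CPM in labelled mutants, without overlap. Aplnr, the endothelial receptor of apelin, was at 49.8 to 57.2 CPM in WT and 41.9 to 44.6 CPM in labelled-mutant libraries (log2 fold change -0.31, SE 0.04, edgeR adjusted p = 0.0118). The list's median log2 fold change was -0.187, with 10 of 12 genes below 0. Its extremes did not pass the test, Agt (angiotensinogen) at -1.03 (SE 0.45) from a level of 0.808 CPM in WT, and Ramp1, a partner of the receptor for adrenomedullin and related peptides, at 0.15 (SE 0.05).

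Upstream of the receptors, 0 of 5 tested processing and clearance genes passed in edgeR's quasi-likelihood test. Furin alone had an unadjusted p below 0.05, and the likelihood ratio test and DESeq2 called it (1 of 5) while voom called 0. Furin, which cuts the endothelin precursor, was at 138 ± 3.76 CPM (SD, n = 4) in WT against 125 ± 5.46 CPM (SD, n = 4) in labelled mutants (log2 fold change -0.15, SE 0.04, edgeR adjusted p = 0.1), and Kel, a protease related to the converting enzymes, had a log2 fold change of 0.66 (SE 0.37) from 0.676 CPM in WT. The list also held Edn2, Ecel1 and Mmel1, which were too low to test.

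Downstream of the receptors, 0 of 8 G protein genes, 0 of 10 genes of phospholipase C, calcium release and protein kinase C and 0 of 10 receptor kinase, arrestin and RGS genes passed in edgeR's quasi-likelihood test. The likelihood ratio test, DESeq2 and voom also called 0, and 1, 2 and 2 genes of these lists had an unadjusted p below 0.05. Among the G proteins the values ran from -0.08 (SE 0.03) for Gnas to 0.10 (SE 0.05) for Gnai1. In the calcium and protein kinase C list they ran from -0.15 (SE 0.17) for Plcb2 to 0.17 (SE 0.05) for Prkcd. The widest range was that of the receptor regulators, from -0.45 (SE 0.17) for Rgs4, which shortens G protein signals, to 0.05 (SE 0.04) for Grk3, a receptor kinase. The medians of these 3 lists were -0.0052, -0.0378 and -0.0462.

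Genes that act downstream of Ednra in neural crest mesenchyme could be followed only in part, since Dlx3, Dlx5, Dlx6 and Gsc were too low to test. The remaining 3 did not pass, with Hand1 at 0.27 (SE 0.11) and Mef2c at -0.08 (SE 0.04) as the extremes. By edgeR 0 passed, 2 had an unadjusted p below 0.05, and the likelihood ratio test, DESeq2 and voom called 0.

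Of 9 factors with known sites or effects at the Edn1 gene, 0 passed in edgeR, in the likelihood ratio test, in DESeq2 or in voom, and 4 had an unadjusted p below 0.05. Jun, a subunit of the AP-1 factor, was at 87.8 ± 6.07 CPM (SD, n = 4) in WT against 97.9 ± 1.46 CPM (SD, n = 4) in labelled mutants (log2 fold change 0.16, SE 0.04, edgeR adjusted p = 0.154), and its groups did not overlap. Its partner Fos had the lowest value, at -0.37 (SE 0.17). The RefSeq window from 250 bases before to 50 after the annotated start of Edn1 (assembly GRCm38.p6, forward strand) was searched on either strand for the core letters these factors are known to bind. Counted from the annotated start, it held TTATCT, the reverse complement of the GATA letters AGATAA, at position 9. CACGT, the reverse complement of the hypoxia response core ACGTG, lay at position 22, and the AP-1 variant TGACTAA at position 37. The last pair is shown with those letters in capitals, at chr13:42301491-42301520, because it lies just after the annotated start. Whether transcription begins at that start in these ventricles was not tested.
Edn1 start region: tggctgCACGTtgcctgtgggTGACTAAtc
Of 32851 windows of the same length, 11.2% held the GATA letters, 19.6% the hypoxia core and 2.35% the AP-1 variant. The AP-1 consensus TGANTCA, held by 7.81% of windows, was not in the window of any of the 6 genes. The hypoxia core was also in a window of Ece1 and in that of Ece2, and the windows of Edn3, Ednra and Ednrb held none of the 4 motifs. A match is a description of the letters and not of binding.

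**Figure D3:**
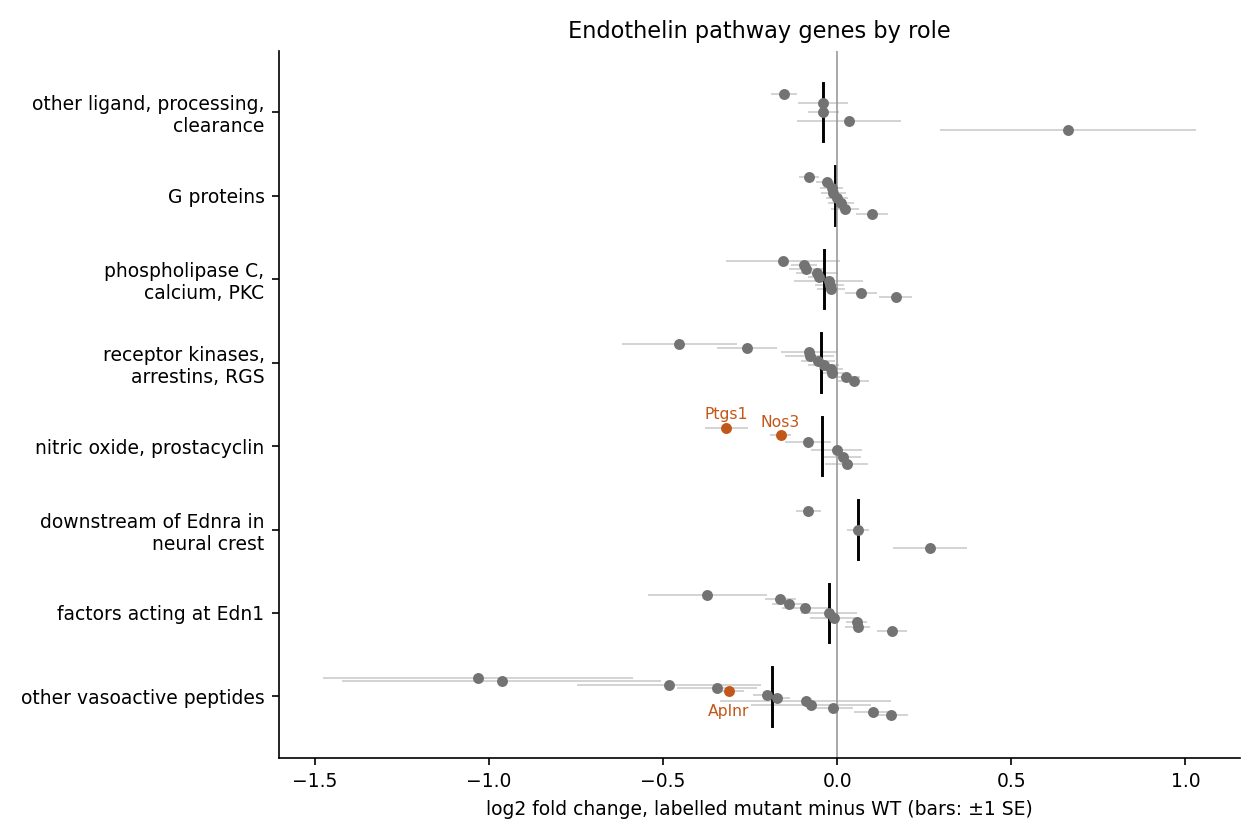
Log2 fold change (labelled mutant minus WT) of each tested gene of 8 pathway lists, with bars of 1 SE, the median of each list as a black line, and genes with FDR below 0.05 in orange. The named orange points Ptgs1, Nos3 and Aplnr lie at -0.32, -0.16 and -0.31, and the list medians lie between -0.187 and 0.0604.

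Whole ventricles hold endothelial, mural, mesenchymal and neural crest-derived cells as well as cardiomyocytes, and marker lists for these were read beside the members. These lists too were chosen with earlier results of these data known, so the share called is a description. Of 89 tested marker genes in 13 lists, 2 fell (2.25%, against 0.526% of all genes tested) and 0 rose in edgeR's quasi-likelihood test. At an unadjusted p below 0.05 there were 20 lower and 4 higher, against 10.5% of all genes tested. The likelihood ratio test called 7, DESeq2 8 (1 of them, Acta2, higher) and voom 1, against 1.57%, 1.29% and 0.37% of all genes. The 2 were Cxcr4, a chemokine receptor of arterial endothelium, which was at 11.5 to 12.7 CPM in WT and 8.54 to 9.65 CPM in labelled-mutant libraries (log2 fold change -0.38, SE 0.07, edgeR adjusted p = 0.0454), and Kcnj3, a potassium channel subunit of the atria, at 17.5 to 18.2 against 11.5 to 14.4 CPM (log2 fold change -0.46, SE 0.08, edgeR adjusted p = 0.0261). Kcnj3 shares 31.1% of its exonic bases with the opposite-strand gene Gm26794.

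Of 12 pan-endothelial markers, 10 had a value below 0, with a median log2 fold change of -0.117. In the edgeR quasi-likelihood test 0 passed, 7 had an unadjusted p below 0.05 (6 of them lower), and the likelihood ratio test called 3, DESeq2 2 and voom 0. Erg, a transcription factor of endothelium, was lowest at -0.19 (SE 0.04, edgeR adjusted p = 0.0769) and Emcn (endomucin) highest at 0.18 (SE 0.07). None of the 12 was at 0 in any library. Their summed level was 1444 to 1486 CPM in WT and 1350 to 1446 CPM in labelled-mutant libraries, and their mean log2 CPM was 6.46 to 6.5 against 6.37 to 6.42, without overlap. Cdh5, whose promoter drives the Cre, was at 280 to 291 CPM in WT and 279 to 297 CPM in labelled mutants. Relative to Cdh5, Ednrb was lower by 0.469 and Edn1 higher by 0.591 (log2), and relative to Pecam1, an adhesion protein of all endothelium, Ednrb was lower by 0.367 and Edn1 higher by 0.693, and the groups overlapped in none of these ratios. With the mean level of the pan-endothelial markers as a covariate, the log2 fold change was -0.38 for Ednrb and 0.86 for Edn1, and that covariate separates the groups, so its part and that of the group cannot be told apart.

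The arterial endothelial list had the lowest median, -0.292, with 6 of 6 genes below 0, from Cxcr4 to Gja4 at -0.02 (SE 0.05). Its sums were 267.8 to 297.9 CPM in WT and 243.9 to 274 CPM in labelled mutants. Of the 6 genes, 4 had an unadjusted p below 0.05, all lower, against 10.5% of all genes tested. The likelihood ratio test and DESeq2 each called 2, both lower, and voom 0, against 1.57%, 1.29% and 0.37% of all genes. Of the endocardial genes 2 of 5, both lower, and of the coronary genes 0 of 4 had such an unadjusted p. Endocardial markers had a median of -0.0563, from -0.25 (SE 0.11) for Cytl1 to 0.10 (SE 0.08) for Adgrg6, and sums of 265.3 to 313.4 and 268.6 to 313.3 CPM. Coronary endothelial markers had a median of -0.0336, from -0.28 (SE 0.17) for Rgcc to 0.15 (SE 0.10) for Sox17, and sums of 406.3 to 439.6 and 386.1 to 443.4 CPM. None of these genes was at 0 in all libraries, and the part of arterial or other endothelial cells in the level of Ednrb was not tested.

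Mural cells are the main site of the A receptor in vessels. Of their 8 markers, 7 lay below 0, 0 passed in edgeR and 4 had an unadjusted p below 0.05 (3 of them lower). Their median was -0.114, from -0.42 (SE 0.22) for the smooth muscle myosin Myh11 to 0.12 (SE 0.04) for the smooth muscle actin Acta2, the only value above 0. The sums of 1848 to 1969 CPM in WT and 1901 to 2031 CPM in labelled mutants came mostly from Acta2, at 1260 to 1360 and 1350 to 1470 CPM. They do not measure the other mural markers, and which cells made the Acta2 RNA was not tested. Of the neural crest and Schwann markers, which accompany Ednrb in the peripheral nervous system, 4 of 8 were too low to test, Sox10 among them, and the sums were 26.45 to 29.3 and 24.47 to 29.52 CPM. Ngfr, the nerve growth factor receptor, was lowest in that list at -0.55 (SE 0.18, edgeR adjusted p = 0.247) and Erbb3, a neuregulin receptor, highest at 0.12 (SE 0.08). Markers of melanocytes, the other known site of Ednrb, summed to 67.99 to 74.48 and 68.81 to 72.94 CPM. Nearly all of this came from Mitf, at -0.03 (SE 0.04), and whether its RNA came from melanocytes was not tested. The sums are therefore no measure of melanocytes. The pigment enzyme Tyr was scarce, at -0.36 (SE 0.32) from 0.876 CPM in WT, and Tyrp1 was too low to test.

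**Figure D4:**
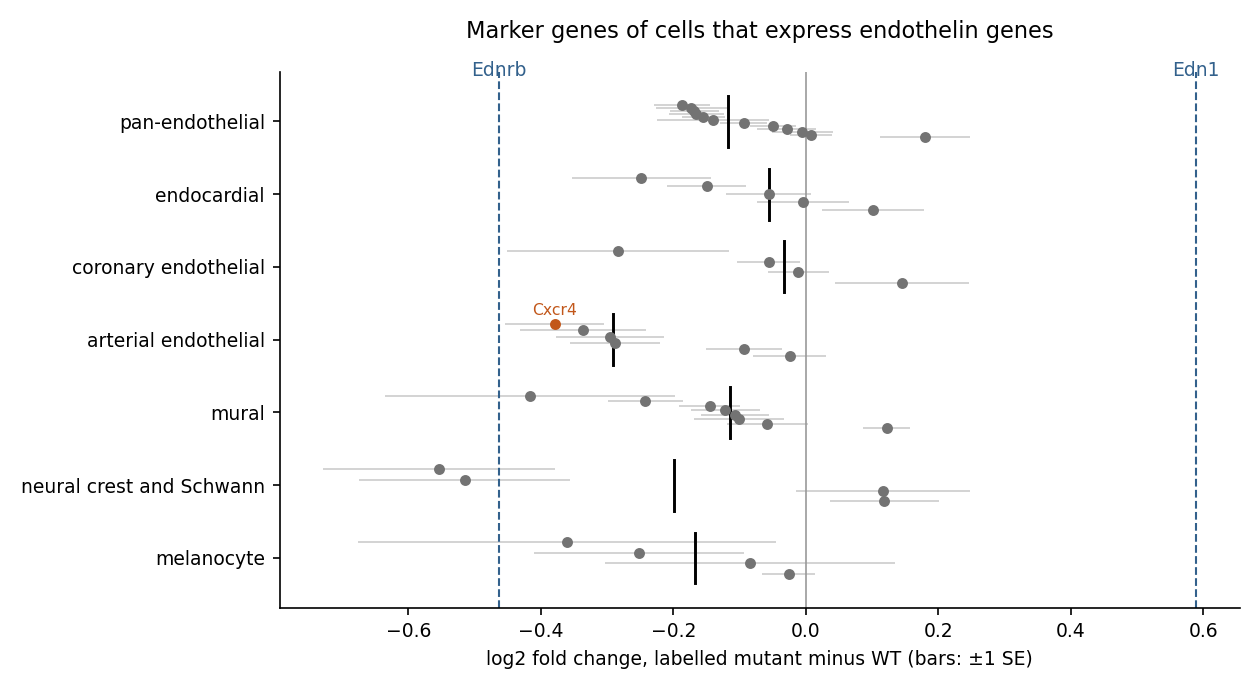
Log2 fold change (labelled mutant minus WT) of marker genes in 7 cell type lists, with bars of 1 SE, list medians as black lines, genes with FDR below 0.05 in orange, and the values of Ednrb and Edn1 as dashed lines at -0.46 and 0.59. The pan-endothelial markers lie between -0.19 and 0.18, and Cxcr4, the orange point, at -0.38.

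The remaining lists overlapped between the groups in their sums, and Kcnj3 was the only gene of these lists that passed in edgeR. Unadjusted p was below 0.05 for 1 fibroblast, 1 cardiomyocyte, 1 atrial and 2 epicardial genes and for 0 erythroid and 0 macrophage genes, and DESeq2 also called Postn and Myh6. Fibroblast genes ran from Postn at -0.18 (SE 0.05) to Tcf21 at 0.07 (SE 0.09), with sums of 5499 to 6492 and 5306 to 6425 CPM, cardiomyocyte genes from Myh6 at -0.19 (SE 0.05) to Ttn at 0.16 (SE 0.21), and atrial genes from Kcnj3 to Myl4 at -0.01 (SE 0.04), with sums of 1572 to 1791 and 1563 to 1724 CPM. Epicardial genes were all 8 above 0, from Aldh1a2 at 0.00294 (SE 0.06) to Upk1b at 0.16 (SE 0.09), with sums of 173.7 to 185.6 and 183.4 to 208 CPM. Erythroid genes had their lowest value in Hba-a1, at -0.00765 (SE 0.21), with sums of 4268 to 9377 and 5848 to 9974 CPM, and macrophage genes from Cd68 at -0.07 (SE 0.21) to Csf1r at 0.14 (SE 0.09), with sums of 81.47 to 114.9 and 92 to 128.1 CPM. The part of these cells in the values of the endothelin genes was not tested.

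The differences of Edn1 and Ednrb kept their sign under all 20 alternative ways of processing the counts. Since the groups of either gene did not overlap, leaving out 1 library could hardly change the sign. The scaling factors, at 0.988 to 1.01, also left little room for it, so the kept sign is a description. The log2 fold change of Edn1 ran from 0.506 to 0.859 and that of Ednrb from -0.495 to -0.382, and with 1 library left out at a time from 0.506 to 0.684 and from -0.495 to -0.43. The value of Ednra lay between -0.122 and 0.00147, and that of Ece1 between -0.0412 and 0.126. Ece2 was the least stable, between -0.904 and 0.0128. The log2 fold changes of the called pathway and marker genes also kept their sign under all 20 alternatives. Aplnr ran from -0.339 to -0.274, Nos3 from -0.206 to -0.152 and Ptgs1 from -0.482 to -0.279. Kcnj3 ran from -0.539 to -0.358 and Cxcr4 from -0.418 to -0.338. Whether these genes passed the test depended on the processing. Aplnr passed the test under 17 of 20 alternatives, Kcnj3 under 13, Nos3 under 9, Ptgs1 under 8 and Cxcr4 under 7. With the replicate number as a block, only Aplnr of the pathway genes and Kcnj3 of the markers passed. Without labelled-mutant library 3, 0 pathway and 0 marker genes passed, and without labelled-mutant library 4, 6 and 4 did. Leaving out any of the 4 WT libraries also left 0 marker genes, and 1 pathway gene, Aplnr.

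**Figure D5:**
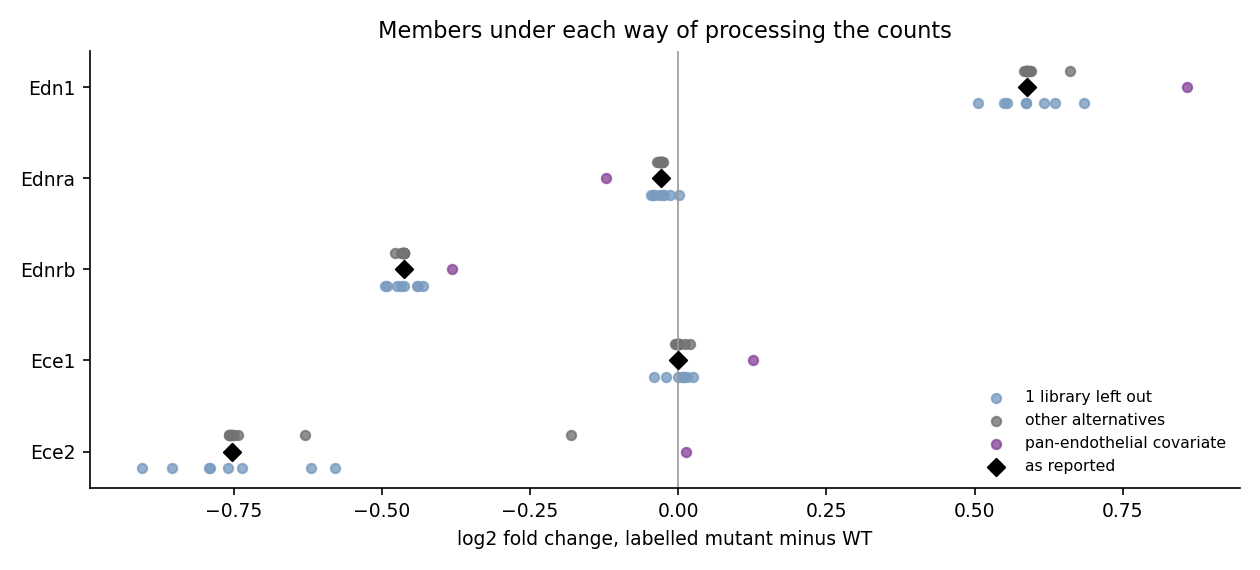
Log2 fold change (labelled mutant minus WT) of the 5 members that passed the filter, as reported (black diamonds), with 1 library left out (blue), with the mean pan-endothelial level as a covariate (purple) and under the other alternatives (grey). Edn1 stays between 0.506 and 0.859 and Ednrb between -0.495 and -0.382, while Ece2 runs from -0.904 to 0.0128, and its grey point at -0.18 is the sum with Gm49333.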

How the data were processed

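RNA-seq libraries of polyadenylated RNA from E15.5 ventricles (4 WT, 4 labelled-mutant) were sequenced as single reads on a HiSeq2500 after a directional library preparation, per the labels. The authors deposited expected counts per Ensembl gene, made with cutadapt and RSEM 1.3.1 on GRCm38 according to the submitters' processing notes. RSEM estimates these counts by sharing out reads that fit more than a single transcript, and 18.1% of the deposited values were not whole (tolerance 1e-06). The aligner and the use of strand in counting are not given in the sources used here.

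Counts were rounded, filtered with filterByExpr by group and scaled with TMM (factors 0.988 to 1.01). CPM values are counts per 1000000 of the scaled library total. Groups were compared with edgeR 4.0.16 in R 4.3.3 (glmQLFit and glmQLFTest, two-sided, group as the only term) and p-values adjusted by Benjamini-Hochberg across the 15388 tested genes, with a threshold of FDR below 0.05. The SE of a log2 fold change was taken from the F statistic. Positions, lengths and overlaps came from GENCODE M21, which matched 53360 of 53465 identifiers, and promoters from RefSeq. All 6 genes had a promoter window, and Ece1 had 4, for different starts. The tests were checked on simulated counts. Pathway and marker genes were named if they passed the test or had the highest or lowest log2 fold change of their list, and the 3 genes most like each member were named by Pearson's r within groups. The genes of 1 pathway list and 1 marker gene count in the totals but are not reported here singly. The members and the lists were chosen with earlier results of these data known.

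Alternatives in scaling were RLE, library totals and the upper quartile. Alternatives in filter were none and a minimum CPM of 1 in 4 or more libraries, and in test DESeq2 1.42.0, limma 3.58.1 voom and the likelihood ratio test. Further ones were the replicate number as a block, the Y-linked sum or the pan-endothelial mean (log2 CPM, pseudocount 0.5) as a covariate, lowess trends (span 0.3) on GC content and length removed, each library left out and another exonic length. The sum of Ece2 with Gm49333 was chosen after seeing the data. Depth, at 16761763 to 24144272 counts, limits genes such as Edn3 and Ece2 with under 30 counts a library. Plots were made in Python 3.11.15 (matplotlib 3.10.9).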

Additional observations from a re-analysis of the deposited data

Results flagged for a closer look

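Among 140 groups of 4 values of the members and named genes, 5 held a library far from the other 3 by Dixon's criterion, against 7 expected by chance at 1 in 20. None of them was a value of the 6 endothelin genes. Hand1 was at 11.9 CPM in a WT library, with the others at 14.6 to 15 CPM, and at 21 CPM in a labelled-mutant library, with the others at 15.2 to 15.9 CPM. Rgs4 was at 2.59 CPM in a WT library (others 4 to 4.17) and Fos at 3.52 CPM in a WT library (others 4 to 4.09). Gm47118, antisense to Edn1, was at 0.0435 CPM in a WT library and at 0 in the other 3.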

How the results depend on the processing

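The log2 fold changes of Edn1 and Ednrb kept their sign under every alternative run. Leaving out 1 library could hardly change it, since their groups did not overlap. The log2 ratio of Edn1 to Ednrb differed by 0.949 to 1.19 with 1 library left out and by 1.06 with the GC and length correction. No pair of members passed under any alternative run for pairs, and with all 8 libraries a lone pair could pass only at the smallest possible p. With 1 library left out, the permutations were too few for a pair to pass alone after adjustment, so those runs could not show stability. The pan-endothelial covariate moved Edn1 to 0.86, Ednra to -0.12, Ece1 to 0.13 and Ece2 to 0.0128, the sum with Gm49333 moved Ece2 to -0.18, and with the longest transcript as length 3 neighbours were apart. Edn3 could be fitted only without a filter (-0.275), and Ece2 was lost under the CPM minimum. The count of all genes called was 338 without a filter, 242 with the likelihood ratio test, 198 with DESeq2, 16 with the Y-linked covariate, 0 with the pan-endothelial covariate (633 with unadjusted p below 0.05) and 11 (without labelled-mutant library 3) to 142 (without library 4) with 1 library left out, against 14 to 47 without any other. Pathway calls were 9, 6, 6, 0 and 0 under those 5 alternatives and 0 to 6 with 1 library left out, and marker calls 9, 7, 8, 0 and 0 and 0 to 4. Marker calls were 1 with library totals, with voom and with the GC and length correction. The cause of these shifts was not tested. Samples that share a replicate number correlated at 0.0447 to 0.121 in their deviations from the group means, not all above 0.1, and other pairs at -0.0877 to 0.0195, so each library correlated best with its own number, as a hint from the data. With the replicate block 93 genes, 1 pathway gene and 1 marker were called and it changed no sign of Edn1, Ednra, Ednrb or Ece2.

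Named genes that did not pass the test changed sign in 31 cases. With the pan-endothelial covariate these were Gnai1 (-0.102), Prkcd (from 0.17 to -0.0858), Fos (from -0.37 to 0.374), Rgcc (from -0.28 to 0.123), Gja4 (0.112), Postn (from -0.18 to 0.0484), Ttn (from 0.16 to -0.0979) and Hba-a1 (0.149), and with the Y-linked covariate Mitf (0.00286) and Hba-a1 (0.379). Others were Aldh1a2 with upper quartile scaling (-0.00115) and voom (-0.000474), and Hba-a1 with voom (0.0354), the replicate block (0.0409) and the GC and length correction (0.00268). With 1 library left out the signs were mixed for Prkg1 (-0.0092 to 0.0751), Gja4 (-0.0526 to 0.0225), Tcf21 (-0.00136 to 0.157), Myl4 (-0.0454 to 0.0298), Aldh1a2 (-0.0287 to 0.0343), Hba-a1 (-0.173 to 0.21) and Cd68 (-0.232 to 0.162).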
